A study of Rattus norvegicus with 8 samples.

Results

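The genes described here encode the enzymes that remove superoxide, hydrogen peroxide and lipid peroxides, together with the glutathione transferases and 2 inducible enzymes of the same defence. They were chosen by name, 35 in all, with earlier results of these data known. Each was represented by its brightest probe set, the group of short probes that reads 1 transcript. Of the 35, 34 had a probe set assigned to that gene alone, among 14217 genes with such a probe set on the array. The probe set of the peroxiredoxin Prdx1 carried a second gene symbol, so Prdx1 was not analysed here. After a filter on dim signal, 33 of the 34 were tested among 10446 genes. The gene left out was Gsr, glutathione reductase, whose signals were 43.5, 7.23, 30.6 and 1.71 in hyperthyroid rats and 32.5, 13.7, 31.4 and 56.9 in controls, on both sides of the filter at about 28.2.

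Superoxide, made mainly by the mitochondrial respiratory chain and by NADPH oxidases, is turned into hydrogen peroxide by superoxide dismutases. Catalase breaks hydrogen peroxide down directly, glutathione peroxidases reduce it with glutathione, and peroxiredoxins reduce it with thioredoxin. Glutathione transferases couple glutathione to reactive lipids and other electrophiles. Many of these genes can be induced by the transcription factor NRF2 through the antioxidant response element. Extraocular muscles, which turn the eyeball, are rich in mitochondria, and thyroid hormone is known to raise oxygen use in muscle.

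Total RNA of extraocular muscle was measured on Affymetrix rat arrays in 8 adult Sprague-Dawley rats, 1 array per rat. No genetic modification is named for either group, and the labels do not state sex. The hyperthyroid group (4 rats) was dosed with T3 (triiodothyronine, the thyroid hormone that binds the nuclear receptors) at 25 µg for each 100 g of weight intraperitoneally, on alternate days over 6 weeks, and tissue was collected 24 hours after the final dose. The control group (4 rats) had no T3, and no vehicle injection is mentioned. The comparison asks how a chronic excess of thyroid hormone is reflected in gene expression of these muscles. Arrays are called by group and number, and signals are listed throughout in the order hyperthyroid 1, 2, 3 and 5, then control 7, 8, 9 and 11.

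A signal is the deposited intensity on a linear scale. Each array had been scaled to the same trimmed mean, and the median signals ran from 47.7 to 58.4. A log2 difference is the mean log2 signal of the hyperthyroid arrays minus that of the controls, so -1 is a halved signal. It is given with its standard error from limma, which was fitted to 18625 probe sets, and the adjusted p carries the Benjamini-Hochberg correction over all of them, with 0.05 as the threshold. No signal of one probe set is compared with that of another, since probes differ in brightness.

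The array labelled hyperthyroid 5 stood apart from the rest. Myh13, the myosin heavy chain that marks extraocular muscle, had a signal of 4.17 on it and 5430 to 9340 on the other 7 arrays. The summed signal of 8 slow fibre genes was 60125 on it, against 11493 to 25787 elsewhere. Genes listed as markers of oligodendrocytes and central glia, cells that are not part of muscle, had their lowest summed signals on hyperthyroid 2 and 5, at 2709 and 1670 against 9544 to 19078 on the other 6 arrays. Aqp4, which is in that sum, read 1213 and 1333 on hyperthyroid 2 and 5 and 1584 to 2272 on the other 6 arrays. It was the largest part of the sum on hyperthyroid 2 and 5, so those sums mostly do not reflect myelin genes. Mobp, a myelin gene, was at 15.3 and 1.37 on hyperthyroid 2 and 5 and at 1249 to 2975 elsewhere. The Gapdh ratio, which divides the signal of a 3 prime probe set by that of a 5 prime one and measures RNA length, was 3.91, 4.40, 2.18 and 1.44 on the hyperthyroid arrays and 1.97, 1.68, 1.77 and 1.67 on the controls. Results are therefore given with and without hyperthyroid 5, and the Gapdh ratio is set beside them. In bulk tissue, fewer cells of a type and less RNA per cell cannot be told apart.

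The antioxidant genes stood mostly below the control level, by small amounts. Since they were chosen with earlier results of these data known, the shares of all genes set beside theirs are a description and not a test. In the fit of all 8 arrays, 25 of the 33 tested (75.8%) had a negative log2 difference and the median was -0.19, whereas 48.8% of all genes tested were lower and their median was 0.01. None of the 33 passed the threshold, and neither did any probe set on the array (0% called); the smallest adjusted p among the 33 was 0.214, for Gstm2. At an unadjusted p under 0.05, 9 of the 33 (27.3%) were lower, against 5.83% of all genes, and 1 was higher, against 6.34%. In 7 members (21.2%) every hyperthyroid array lay below every control, against 3.75% of all genes, and in 1 every hyperthyroid array lay above, against 4.49%. The lower 7 were the secreted superoxide dismutase Sod3, the lipid hydroperoxide reductase Gpx4, the peroxiredoxins Prdx2, Prdx3 and Prdx5, and the glutathione transferases Gstm2 and Gstk1. The higher 1 was Gpx3, the secreted glutathione peroxidase.

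Bright genes as a whole leaned the same way. Among the 2089 brightest genes tested, above a signal of about 497, 60.6% were lower, 13.1% were lower at an unadjusted p under 0.05, and the median was -0.08. That set held 16 of the 33 members, and the other 17 were dimmer.

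Without hyperthyroid 5, 29 probe sets passed the threshold (0.156%), and none of them was an antioxidant member. Of the 32 members then tested, 23 (71.9%) were lower, with a median of -0.29 beside 0.02 over all genes, and the smallest adjusted p was 0.0818. The count lower at an unadjusted p under 0.05 was 11 (34.4%), against 8.2% of all genes and 20.2% of the brightest, and 1 was higher, against 7.82%. In 9 (28.1%) the groups did not overlap with the hyperthyroid arrays below, against 7.22% of all genes, and in 1 they did not overlap with the hyperthyroid arrays above, against 8.3%. The genes added to the non-overlapping ones were Gpx1 and Prdx4, and those added at an unadjusted p under 0.05 were Prdx4, Gstt1 and Mgst1, while Nqo1 dropped out.

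**Figure D1:**
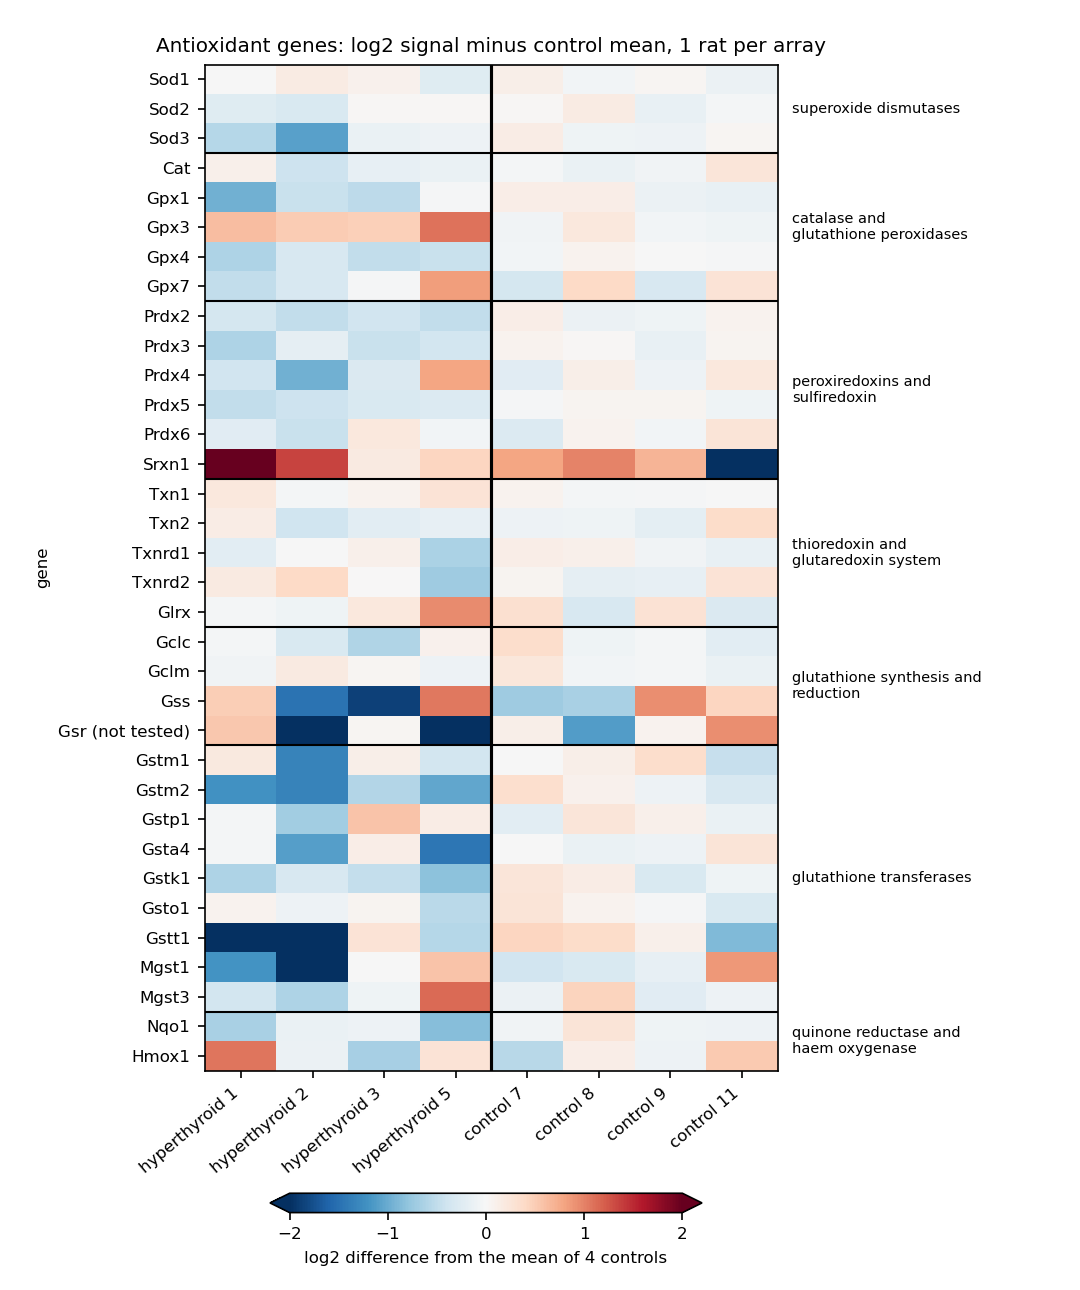
Log2 signal of 34 antioxidant genes (rows, by enzyme class) on each of the 8 arrays (columns, 1 rat each) minus the mean of the 4 controls, from blue (lower) to red (higher), with the colours capped at 2 either way. Prdx2, Prdx3, Prdx5, Gpx4, Gstm2 and Gstk1 are blue on all 4 hyperthyroid arrays and Gpx3 is red on all 4, while hyperthyroid 2 holds the lowest value of 14 genes.

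**Figure D2:**
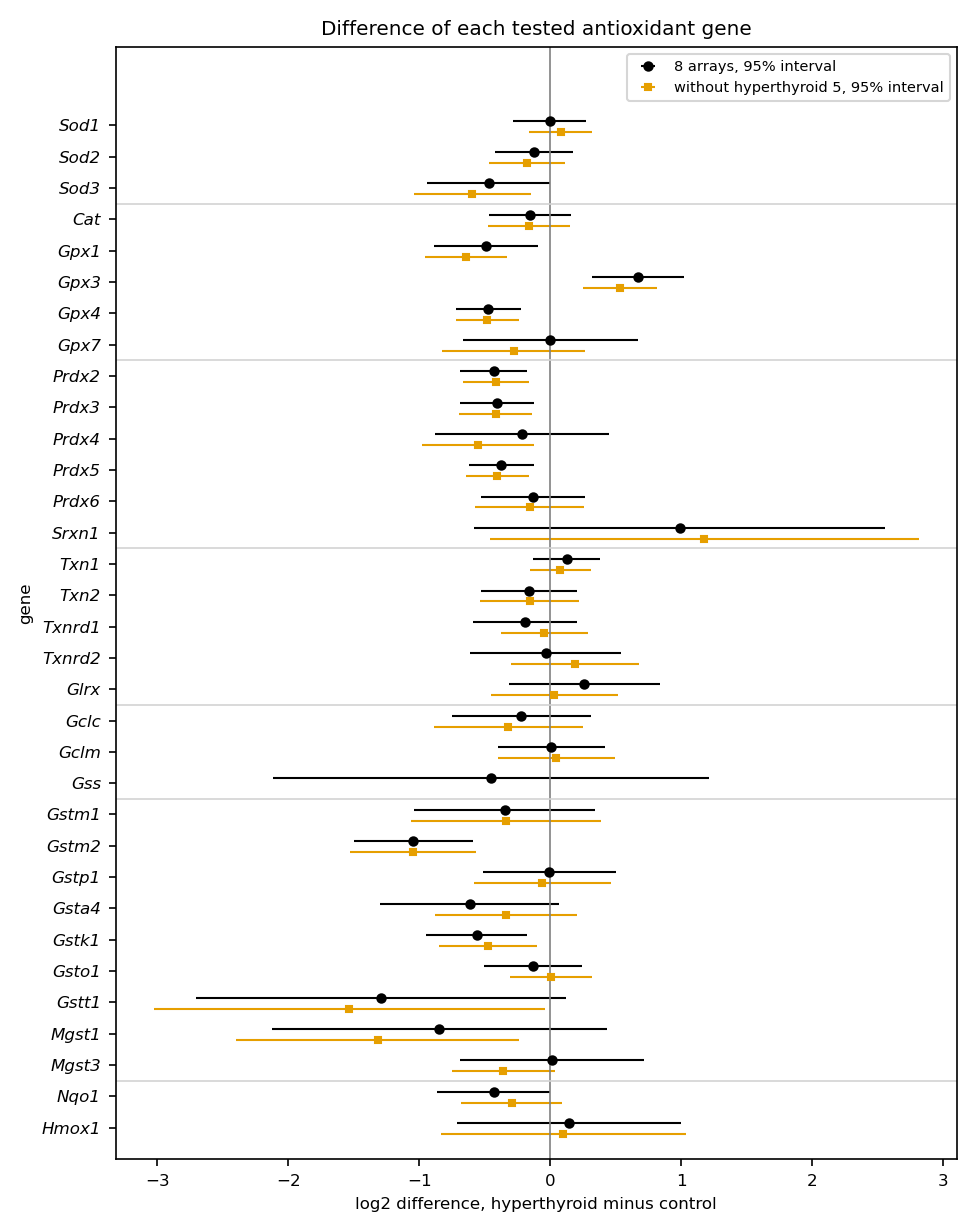
Log2 difference, hyperthyroid minus control, of the 33 tested antioxidant genes with 95% intervals from limma, for all 8 arrays (black circles) and without hyperthyroid 5 (orange squares). Gss has no value without hyperthyroid 5, and the widest intervals belong to dim genes such as Gss, Srxn1 and Gstt1.

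The 3 superoxide dismutases differed in how far they stood from the control. Sod3 (1368322_at), the secreted enzyme of the extracellular space, had signals of 313, 219.5, 424 and 433 in hyperthyroid rats and 512, 439, 434 and 474 in controls. The groups did not overlap, but hyperthyroid 3 and 5 came close to the lowest control, and the difference rests mainly on hyperthyroid 1 and 2. Its means were 347 ± 101 against 465 ± 36.3 (SD, n = 4 each) and its log2 difference was -0.47 ± 0.21 (adjusted p = 0.432), or -0.59 ± 0.20 without hyperthyroid 5 and -0.27 without hyperthyroid 2. Sod1, the cytosolic copper-zinc enzyme, read 4262, 4819, 4531 and 3617 against 4664, 4138, 4425 and 3952. Its groups overlapped throughout, and the 95% interval of its log2 difference was -0.28 to 0.28. Sod2, the manganese enzyme of mitochondria, read 811, 781, 974 and 979.8 against 971, 1079.8, 864 and 939, with a log2 difference of -0.12 ± 0.14. Only hyperthyroid 1 and 2 lay below the controls for Sod2.

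Among the peroxide-removing enzymes that use glutathione, the members went in opposite directions. Gpx4 (1386871_at), which reduces lipid hydroperoxides within membranes, had signals of 2385, 2918, 2590.0 and 2669 in hyperthyroid rats and 3533, 3847, 3646 and 3584 in controls. All 4 hyperthyroid arrays lay well below all 4 controls, and the spread within each group was small. The means were 2640.3 ± 220 against 3652 ± 138 (SD, n = 4 each), a 1.39-fold lower level, with a log2 difference of -0.47 ± 0.11 (unadjusted p = 0.00151, adjusted p = 0.24), and -0.48 ± 0.11 without hyperthyroid 5 (adjusted p = 0.0962). A second Gpx4 probe set was too dim to test, at 2.89 to 18.0, and its log2 difference of 0.94 had the opposite sign.

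Gpx3 (1369926_at), a selenoprotein released into plasma and extracellular fluid, had signals of 966, 899, 881 and 1342 against 601, 732, 607 and 595. Every hyperthyroid array was above every control, hyperthyroid 5 by the widest margin, and control 8 stood above the other controls. The means were 1022 ± 216 against 634 ± 65.7 (SD, n = 4 each), 1.59-fold higher, with a log2 difference of 0.67 ± 0.16 (adjusted p = 0.232) and 0.53 ± 0.13 without hyperthyroid 5 (adjusted p = 0.107). Adipose tissue also makes Gpx3. The summed signal of 7 adipocyte genes was 6331, 4462, 7962 and 17895 on the hyperthyroid arrays and 5775 to 7979 on the controls, and the part of adipose tissue in the Gpx3 result was not tested.

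Gpx1 (1367576_at), the cytosolic and mitochondrial glutathione peroxidase, read 2306, 3305, 3131 and 4401 against 4939.6, 4932, 4155 and 4035. Hyperthyroid 1, 2 and 3 lay below all controls and hyperthyroid 5 lay among them. The log2 difference was -0.49 ± 0.18 (adjusted p = 0.351), and -0.64 ± 0.14 without hyperthyroid 5 (adjusted p = 0.0935). Catalase, the haem enzyme of peroxisomes, read 1904, 1338, 1598 and 1620.3 against 1728, 1631, 1704 and 2105, with overlapping groups and a log2 difference of -0.15 ± 0.14. Gpx7, which works in the endoplasmic reticulum, read 116, 131, 161 and 293 against 128, 216, 131 and 197. Its log2 difference was 0.00 ± 0.30 with hyperthyroid 5, the highest array, and -0.28 ± 0.25 without it.

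The peroxiredoxins were the class in which the hyperthyroid arrays lay most evenly below the controls. The class median, relative to the control mean and on the log2 scale, was -0.37, -0.43, -0.30 and -0.17 on the hyperthyroid arrays and 0.02, 0.06, -0.07 and 0.06 on the controls, over 5 peroxiredoxins and sulfiredoxin. Of these 6 genes 5 were lower, 3 of them without overlap, and the class median of the log2 difference was -0.29.

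Prdx2 (1367578_at), a cytosolic peroxiredoxin, had signals of 1560.3, 1415, 1540.3 and 1425 in hyperthyroid rats and 2203, 1844, 1874 and 2096 in controls. The hyperthyroid arrays were close to each other and all below the lowest control. The means were 1485 ± 75.8 against 2004 ± 174 (SD, n = 4 each) and the log2 difference was -0.43 ± 0.12 (adjusted p = 0.275). Red blood cells are also rich in Prdx2, and the haemoglobin gene Hbb read 7162, 9417, 7837 and 8095 against 8645, 11414, 11082 and 13568, with a log2 difference of -0.45 ± 0.16 (unadjusted p = 0.0146, adjusted p = 0.332). The summed signal of 5 red blood cell genes was 7305 to 9628 in hyperthyroid rats and 8781 to 13758 in controls, and nearly all of that sum is Hbb. Of the other 2 tested, Alas2, the haem synthesis enzyme of red cell precursors, stood at -0.20 ± 0.27, and Slc4a1, the anion exchanger of the red cell membrane, stood higher at 61.2, 70.6, 62.0 and 60.8 against 39.2, 26.5, 31.0 and 15.2, without overlap (1.26 ± 0.42, adjusted p = 0.331). The part of red blood cells in the Prdx2 result was not tested.

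Prdx3 (1367591_at), the peroxiredoxin of the mitochondrial matrix, read 1575, 2136, 1788 and 1874 against 2549.7, 2474, 2188 and 2508. Hyperthyroid 2 came just under the lowest control, control 9, and the other 3 lay further below. The log2 difference was -0.40 ± 0.13 (adjusted p = 0.313). Prdx5 (1367677_at), found in mitochondria, peroxisomes and cytosol, read 1222, 1284, 1379 and 1412 against 1683, 1776, 1777 and 1608. Its groups were well apart, with means of 1324 ± 87.2 against 1711 ± 81.4 (SD, n = 4 each) and a log2 difference of -0.37 ± 0.11 (adjusted p = 0.304). Without hyperthyroid 5 the values of Prdx2, Prdx3 and Prdx5 were -0.41 ± 0.12, -0.42 ± 0.13 and -0.40 ± 0.11, with adjusted p-values of 0.151, 0.172 and 0.144.

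Prdx4, the peroxiredoxin of the endoplasmic reticulum, read 298, 199.9, 318 and 671 against 332, 425, 365 and 450.1. Hyperthyroid 5 was the highest of all arrays and the other 3 hyperthyroid arrays were the lowest, so the log2 difference was -0.22 ± 0.30 with it and -0.55 ± 0.20 without it (adjusted p = 0.223). Prdx6, which reduces phospholipid hydroperoxides, read 331, 282, 447 and 370.4 against 321, 404, 371 and 460.4, with overlapping groups and a log2 difference of -0.13 ± 0.18. Srxn1, sulfiredoxin, restores overoxidised peroxiredoxins and was dim and variable. It read 186, 118, 52.5 and 62.1 against 79.7, 91.7, 73.8 and 8.49, and its log2 difference of 0.99 ± 0.71 was 0.17 when control 11 was left out. A second, dimmer Srxn1 probe set had a log2 difference of 0.73 ± 0.72, and the dimmest, below the filter at 1.54 to 37.7, had -0.60.

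**Figure D3:**
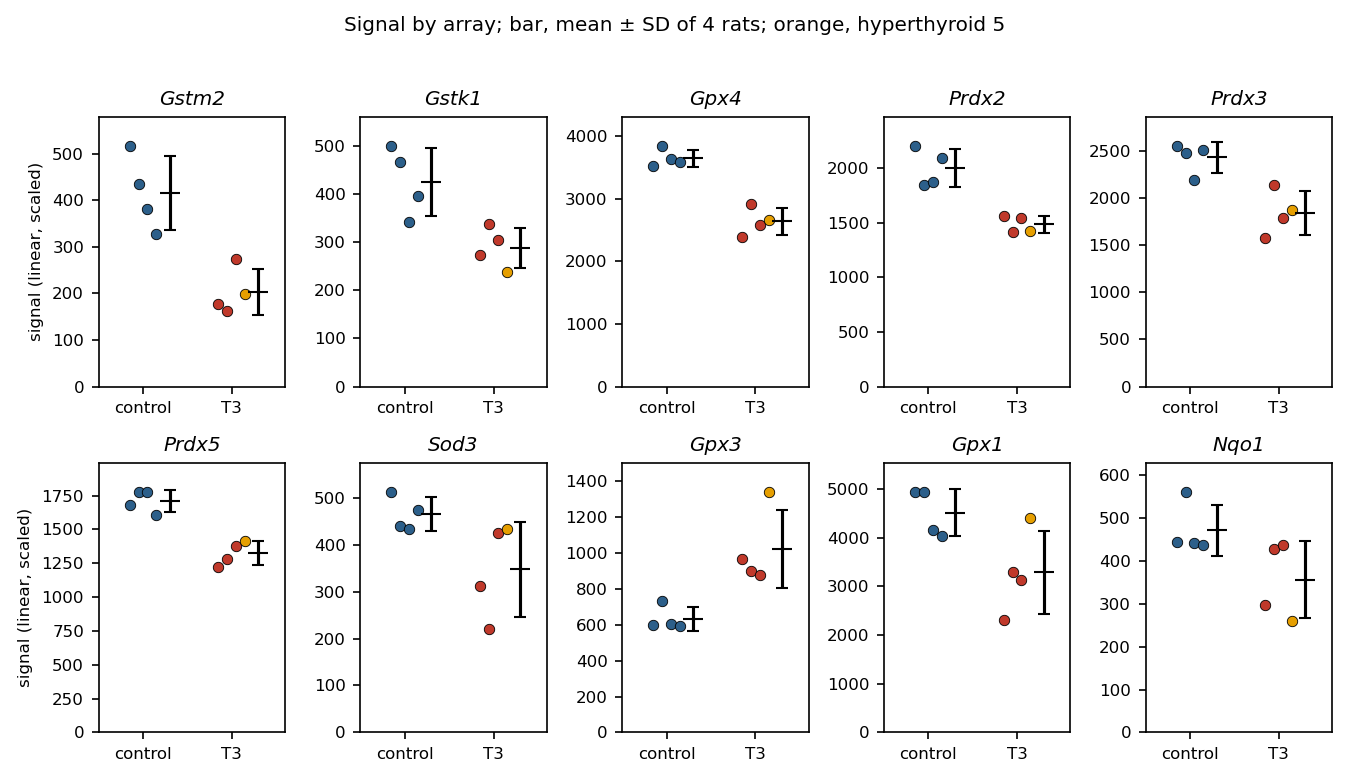
Signal (linear, scaled, axis from 0) of 10 antioxidant genes by rat, with control in blue, hyperthyroid in red, hyperthyroid 5 in orange, and the bar showing mean ± SD of 4 rats. The groups do not overlap in the first 8 panels, Gstm2 to Gpx3, and overlap in Gpx1 and Nqo1, where hyperthyroid 5 and hyperthyroid 3 respectively reach the controls.

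The thioredoxin and glutaredoxin genes stood close to the control level. Txn1, cytosolic thioredoxin, read 5321, 4488, 4856 and 5579 against 4853, 4491, 4536 and 4597, with a log2 difference of 0.13 ± 0.12. Txn2, its mitochondrial counterpart, had 814, 557, 638 and 655 against 689.8, 695, 646 and 952, with -0.16 ± 0.17. For both genes the groups overlapped, and the 95% intervals ran from -0.13 to 0.38 for Txn1 and from -0.53 to 0.21 for Txn2. The reductases that recharge them, Txnrd1 in the cytosol and Txnrd2 in mitochondria, had log2 differences of -0.19 ± 0.18 and -0.03 ± 0.26. Both were lowest on hyperthyroid 5, at 258 and 75.2, and without it their values were -0.04 ± 0.15 and 0.19 ± 0.22. Glrx, glutaredoxin, which removes glutathione from protein thiols, read 180.5, 175, 215 and 357 against 229.7, 148, 227 and 152. Its log2 difference of 0.26 ± 0.26 was found with hyperthyroid 5, the highest array, and was 0.03 ± 0.22 without it. A second, dimmer Glrx probe set read 122, 148, 187 and 231 against 123, 160, 101 and 100. Its log2 difference on all 8 arrays was 0.49 ± 0.25 (unadjusted p = 0.0764 in limma). None of these 5 had an unadjusted p under 0.05, with or without hyperthyroid 5.

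No gene of glutathione synthesis differed beyond the spread between rats. Gclc, the catalytic subunit of glutamate-cysteine ligase, the rate-limiting enzyme, read 104, 86.5, 70.9 and 113 against 137, 101, 104 and 92.6, with a log2 difference of -0.22 ± 0.24. Gclm, its regulatory subunit, read 130.3, 155, 141 and 127 against 160.4, 132, 133 and 125, and had a 95% interval of -0.40 to 0.42. Gss, glutathione synthetase, was dim and variable in both groups, at 51.7, 13.2, 10 and 75.7 against 22.5, 23.5, 69.4 and 49.1, and its interval of -2.11 to 1.21 allows a large difference either way. None of the 3 had an unadjusted p under 0.05.

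The glutathione transferases held both the member with the smallest p and the widest scatter of class medians between hyperthyroid arrays. Gstm2 (1370952_at), a mu-class transferase prominent in muscle, had signals of 177, 162, 274 and 199 in hyperthyroid rats and 517, 435, 381 and 329 in controls. The highest hyperthyroid array, hyperthyroid 3, was below the lowest control, control 11. The means were 203 ± 49.7 against 415 ± 80.2 (SD, n = 4 each), a 2.06-fold lower level by the log2 difference of -1.04 ± 0.21 (adjusted p = 0.214). Without hyperthyroid 5 the value was -1.04 ± 0.22 (adjusted p = 0.0818), and over the 8 fits that leave out 1 array each it ran from -1.20 to -0.93.

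Gstk1 (1398378_at), the kappa-class transferase of mitochondria and peroxisomes, read 274, 337, 304 and 238 against 499.6, 466, 342 and 395. Hyperthyroid 2 lay just under control 9, and the other hyperthyroid arrays were lower. The means were 288 ± 42 against 426 ± 70.7 (SD, n = 4 each) and the log2 difference was -0.56 ± 0.18 (adjusted p = 0.306), or -0.47 ± 0.17 without hyperthyroid 5 (adjusted p = 0.23).

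The other 7 transferases had overlapping groups. Gstm1, the mu-class neighbour of Gstm2 on chromosome 2, read 364, 126, 344 and 246 against 316, 343, 405 and 230.4, and its log2 difference of -0.35 ± 0.31 was -0.017 without hyperthyroid 2, the lowest array. Mu-class genes are alike in sequence, so some signal may be shared between their probe sets. Gsta4, which conjugates the lipid peroxidation product 4-hydroxynonenal, read 690.5, 331, 774 and 261 against 702, 645, 662 and 844. Hyperthyroid 2 and 5 lay far below the controls and hyperthyroid 1 and 3 lay among them. The log2 difference was -0.61 ± 0.31 (adjusted p = 0.475), and -0.34 ± 0.25 without hyperthyroid 5 (adjusted p = 0.548).

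Gstt1, a theta-class transferase, read 13.0, 12.3, 82.7 and 46.3 against 91.7, 88.4, 73.2 and 37.0, low on hyperthyroid 1 and 2 only. Its log2 difference was -1.29 ± 0.64, and -1.53 ± 0.69 without hyperthyroid 5 (adjusted p = 0.318). Mgst1, a microsomal transferase that also reduces lipid peroxides, read 722, 248, 1656 and 2472 against 1267, 1341, 1479 and 3027. Hyperthyroid 2 was the lowest array and hyperthyroid 5 was above 3 of the 4 controls, and its log2 difference was -0.84 ± 0.58 with all arrays, -1.32 ± 0.50 without hyperthyroid 5 (adjusted p = 0.245) and -0.21 without hyperthyroid 2. Mgst3, its relative, was likewise highest on hyperthyroid 5, at 2902 against 867 to 1812 elsewhere, with a log2 difference of 0.02 ± 0.32 and -0.36 ± 0.18 without that array.

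Gstp1, the pi-class transferase, which in brain marks oligodendrocytes, read 958, 610.1, 1458 and 1095 against 849, 1168, 1058 and 903. It was lowest on hyperthyroid 2 and highest on hyperthyroid 3, and its log2 difference was -0.01 ± 0.23. Gsto1, the omega-class member, read 1366, 1205, 1339.6 and 895 against 1545, 1367, 1275 and 1045, with a log2 difference of -0.13 ± 0.17. Over the 9 transferases the medians relative to the control mean were -0.37, -1.10, 0.05 and -0.53 on the hyperthyroid arrays and -0.01, 0.11, -0.10 and -0.13 on the controls. Hyperthyroid 3 lay among the controls and hyperthyroid 2 far below them.

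The 2 inducible enzymes were not alike. Nqo1 (1387599_a_at), a quinone reductase and a standard target of NRF2, read 298, 428, 437 and 261 against 444, 561, 442 and 437. Hyperthyroid 1 and 5 were clearly low, hyperthyroid 2 and 3 were at or just under the lowest controls, and control 8 stood above the other controls. The log2 difference was -0.43 ± 0.20 (adjusted p = 0.432), and -0.29 ± 0.18 without hyperthyroid 5 (adjusted p = 0.455). Hmox1, haem oxygenase, read 147, 64.6, 44.1 and 84.8 against 47.8, 76.3, 65.1 and 100.2. Its highest signal was on hyperthyroid 1 and its lowest on hyperthyroid 3, and the log2 difference was 0.14 ± 0.39.

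Promoter sequence was available for 29 of the 34 genes, from RefSeq (build GRCr8), as windows from 250 bases before to 50 bases after the start of transcription. The 250 bases before the start are shown for Gstm2 and Gpx3, the members with the smallest p in each direction, on the strand of the gene and 5′ to 3′, with searched motifs in capitals. Gstm2 lies on the minus strand (chr2:198316918-198317167) and holds none of the 4 motifs searched. Gpx3 lies on the plus strand (chr10:39529085-39529334) and holds 1 GC box close to its start.
Gstm2: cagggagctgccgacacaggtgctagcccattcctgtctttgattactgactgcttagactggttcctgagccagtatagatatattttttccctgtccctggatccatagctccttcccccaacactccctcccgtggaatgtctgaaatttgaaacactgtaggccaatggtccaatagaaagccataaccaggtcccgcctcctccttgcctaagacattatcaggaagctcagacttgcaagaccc
Gpx3: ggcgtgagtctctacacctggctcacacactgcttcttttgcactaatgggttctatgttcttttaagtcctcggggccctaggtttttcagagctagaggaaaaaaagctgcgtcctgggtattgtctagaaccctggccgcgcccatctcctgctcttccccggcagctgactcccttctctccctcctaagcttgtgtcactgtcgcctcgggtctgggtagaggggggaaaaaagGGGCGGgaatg

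The antioxidant response element core, TGACNNNGC on either strand, was found in 6 of the 29 genes (20.7%), against 15.2% of 8687 tested genes and 13.1% of all 27457 genes with a window. Each site is shown with 8 bases on either side, in the direction of its gene, with the element in capitals (in Gstp1 the element reads forward, in the others it is on the reverse strand). They are set out because they belong to members whose log2 differences were small or uneven as well as to a member, Prdx5, whose groups did not overlap.
Gclm: cggtttctGCTTAGTCAttgtcttc
Gstp1: cactgtgtTGACTCAGCatccgggg
Txnrd1: ggatttttGCTTTGTCAttctgaca
Sod2: cgctgccgGCAGGGTCAgcgcctag
Prdx4: tcgtgctcGCTTGGTCAtggaaacg
Prdx5: tcctgtggGCAGAGTCAtctgcggg
Of these 6 genes, Prdx5 was the only one at an unadjusted p under 0.05 in the fit of all 8 arrays. Gpx4, Prdx2, Prdx3, Gstm2, Gstk1 and Gpx3 had no such core in their windows, and Sod3 had no window. Nqo1, a standard target of NRF2, had no core in its window either, and sites outside the windows were not searched. The AP-1 site TGANTCA was in 5 genes (17.2%, against 5.38% of tested genes): Glrx, Gsto1, Gstp1, Mgst1 and Srxn1, and in Gstp1 it overlaps the antioxidant response element core. The GC box GGGCGG was in 25 (86.2%, against 64%). AGGTCA, the 6-base motif of nuclear receptors including those for thyroid hormone, was in 6 (20.7%, against 12.5%): Cat, Gpx4, Gstm1, Prdx3, Srxn1 and Txnrd2. A match describes the letters of the reference genome and not binding in these rats.

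Set side by side, the classes fell into different patterns. The median log2 difference was -0.56 over 9 glutathione transferases (8 lower), -0.29 over the peroxiredoxins and sulfiredoxin (5 of 6 lower), -0.15 over catalase and the glutathione peroxidases (3 of 5 lower) and -0.12 over the superoxide dismutases (3 of 3 lower, with Sod1 close to 0). It was -0.22 over glutathione synthesis (2 of 3 lower), -0.03 over the thioredoxin and glutaredoxin genes (3 of 5 lower) and -0.14 for the last pair (1 of 2 lower). Differences between classes were not tested. The transferase median was -0.21 without hyperthyroid 2 (7 of 9 lower), -0.36 without hyperthyroid 5 (8 of 9 lower) and -0.23 without both (5 of 9 lower). For the peroxiredoxin class it was -0.19, -0.41 and -0.35, with 4, 5 and 5 of 6 lower. For catalase and the glutathione peroxidases it was -0.067, -0.28 and -0.26, and for the superoxide dismutases -0.065, -0.17 and -0.11. For glutathione synthesis it was -0.11, -0.13 (2 genes) and -0.32. Under quantile normalization 7 of 9 transferases, 5 of 6 peroxiredoxin genes, 4 of 5 peroxidase genes and 2 of 3 dismutases were lower, and under median centring 9, 5, 4 and 3 were. With the Gapdh ratio as a covariate on all 8 arrays 6, 3, 3 and 2 were, and the peroxiredoxin class median was -0.13. When hyperthyroid 5 was also left out, the counts were 2, 5, 3 and 0, in a fit where the ratio and the treatment cannot be told apart. Median centring moved the median of all probe sets tested from 0.03 to -0.09, and relative to that median the members stood at -0.22 with and without centring.

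**Figure D4:**
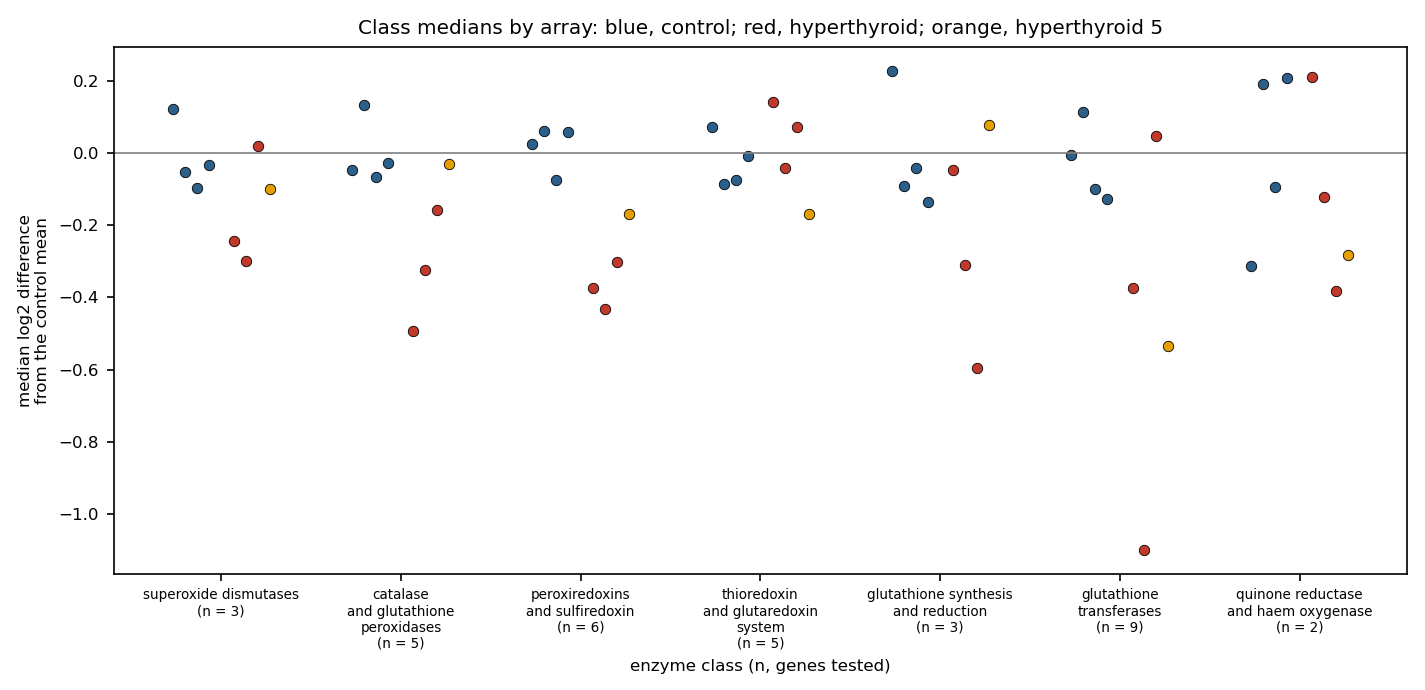
Median log2 difference from the control mean over the tested genes of each enzyme class, 1 point per array, with controls in blue, hyperthyroid in red and hyperthyroid 5 in orange. The 4 hyperthyroid arrays lie below all 4 controls in the peroxiredoxin class, at -0.43 to -0.17 against -0.07 to 0.06, while in the transferase class they spread from -1.10 to 0.05.

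The shift was uneven across hyperthyroid rats. Of the 34 genes, 16, 24, 14 and 15 were below all 4 controls on hyperthyroid 1, 2, 3 and 5, and 4, 4, 3 and 7 were above all 4. The lowest of the 8 arrays was hyperthyroid 2 for 14 genes and hyperthyroid 5 for 8. The highest was control 7 for 11 genes and hyperthyroid 5 for 7. The median over the 33 tested genes was -0.22, -0.32, -0.02 and -0.11 on the hyperthyroid arrays and 0.02, 0.08, -0.07 and -0.09 on the controls, so hyperthyroid 3 was inside the control range. Without hyperthyroid 2 the median log2 difference was -0.11 and 24 members were lower.

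Hyperthyroid 1 and 2 had the 2 highest Gapdh ratios, 3.91 and 4.40, and the 2 lowest medians of the members. Among the other 6 arrays the median did not follow the ratio, and hyperthyroid 5, with the lowest ratio, had a median below every control. With the ratio as a covariate on 8 arrays, 21 of 33 members were lower, with a median of -0.15, and 7 were lower at an unadjusted p under 0.05: Gpx4 (-0.47), Prdx2 (-0.45), Prdx3 (-0.41), Prdx5 (-0.30), Gstm2 (-0.91), Gstk1 (-0.69) and Nqo1 (-0.55). In that fit Gpx3 (0.84), Glrx (0.59) and Mgst3 (0.61) were higher at that level, and Sod3 and Gpx1 stood at -0.15 and -0.28. The share of all genes at that level is not given for this fit or the next. Their counts of members are therefore a description, with nothing to judge them against. With the ratio as a covariate and hyperthyroid 5 left out, a fit added after seeing the data, 16 of 32 were lower and the median was -0.018. Without hyperthyroid 5 the lowest ratio of a hyperthyroid array, 2.18, was above the highest of a control, 1.97. The ratio and the treatment therefore cannot be told apart in this fit. Gpx4 (-0.52) was then the member lower at an unadjusted p under 0.05, 2 of 9 transferases were lower, and Gstp1 stood at 0.93 (unadjusted p = 0.00632, adjusted p = 0.870). The part of RNA length in the results was not tested beyond these fits.

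**Figure D5:**
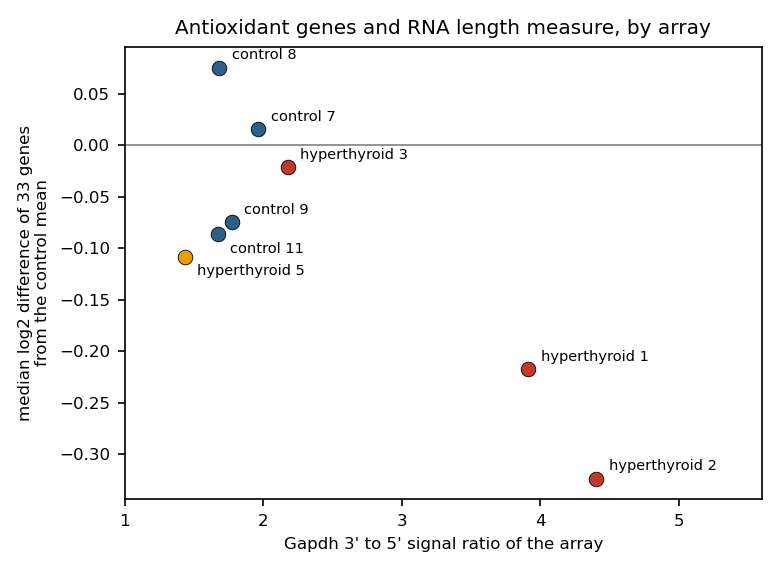
Median log2 difference of the 33 tested antioxidant genes from the control mean (vertical) against the 3 prime to 5 prime Gapdh signal ratio of the array (horizontal), 1 point per rat, with controls in blue, hyperthyroid in red and hyperthyroid 5 in orange. Hyperthyroid 1 and 2 sit apart at ratios of 3.91 and 4.40 and medians of -0.22 and -0.32, and the other 6 arrays lie between -0.11 and 0.08 at ratios of 1.44 to 2.18.

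Markers of other tissues were compared by counts and summed signals, and none of them passed the adjusted threshold. All 9 oligodendrocyte and central glia genes tested were lower, with summed signals of 1670 to 14933 against 9544 to 19078. Of 5 tested genes of Schwann cells and peripheral nerve 4 were lower, with sums of 3218 to 12891 against 7156 to 13902. All 5 tested genes of gland and epithelium were lower, with sums of 166 to 548 against 535 to 1458. The 9 endothelial genes tested were all higher, with sums of 2918 to 3589 against 2537 to 3097, and 7 of 8 fibroblast genes were lower, with sums of 14258 to 45388 against 20433 to 38559. Leukocyte genes split 5 lower to 6 higher, with sums of 1811 to 7363 against 2602 to 3886, and adipocyte genes 4 lower to 2 higher. Without hyperthyroid 5, 10 of 11 leukocyte genes were lower (median -0.48, against 0.04 with it), as were 6 of 6 adipocyte genes (median -0.89, against -0.24). The other counts without it were 9 of 9 lower for glia, 3 of 5 for Schwann cells and 5 of 5 for gland and epithelium. They were 6 of 8 for fibroblasts and 1 of 9 for endothelium. The part of these tissues in the members' results was not tested.

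Beyond the members, 9 lists of genes from connected pathways held 102 tested genes, of which 51 were lower and 51 higher. At an unadjusted p under 0.05, 14 were lower and 4 higher, against 5.83% and 6.34% of all genes, and 0 passed the adjusted threshold with or without hyperthyroid 5. The lists differed from each other in direction.

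The genes that supply NADPH, the reductant that recharges glutathione and thioredoxin, were lower in 9 of 10, with a median of -0.22. Nnt, the mitochondrial transhydrogenase, read 2891, 3379.7, 3329.8 and 1315 against 4855, 4309.7, 2995 and 4054, with a log2 difference of -0.64 ± 0.28 that was -0.32 ± 0.15 without hyperthyroid 5, the lowest array. Taldo1, transaldolase of the pentose phosphate pathway, stood at -0.56 ± 0.24, with control 11 far above the rest. The NRF2 regulators were lower in 2 of 6. Mafk, a small Maf partner of NRF2, was the one at an unadjusted p under 0.05, at 140.3, 146, 167 and 205 against 89.7, 109, 126 and 119, without overlap and with a log2 difference of 0.56 ± 0.21 (adjusted p = 0.352). Without hyperthyroid 5, Mafk stood at 0.45 ± 0.22 (unadjusted p = 0.0633) and Mafg of the same list at 0.63 ± 0.26 (unadjusted p = 0.0308).

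Other glutathione transferases were lower in 6 of 12 (median -0.16), and in 5 of 12 without hyperthyroid 5 (median 0.11). Gstz1, the zeta-class enzyme of tyrosine breakdown, read 72.9, 93.9, 114 and 130.4 against 158, 172, 184 and 203. All hyperthyroid arrays lay below all controls, and the log2 difference was -0.83 ± 0.22 (adjusted p = 0.272). The mu-class Gstm5 and alpha-class Gsta1 stood at -0.51 ± 0.20 and -0.65 ± 0.28.

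Among genes that export, split or transport glutathione, Chac1, which degrades glutathione inside the cell, had signals of 577, 324, 295 and 832 in hyperthyroid rats and 196, 152, 187 and 148 in controls. Every hyperthyroid array was above every control. Its log2 difference was 1.45 ± 0.30 (adjusted p = 0.214), and 1.17 ± 0.24 without hyperthyroid 5 (adjusted p = 0.0792). Hagh, a glyoxalase, and Abcc4, an efflux transporter, stood at -0.59 ± 0.18 and -0.66 ± 0.26, and 6 of the 15 tested genes of this list were lower.

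Of 16 other redoxins and methionine sulfoxide reductases, 8 were lower, and 11 were without hyperthyroid 5. Glrx5, a mitochondrial glutaredoxin of iron-sulfur cluster assembly, was the one at an unadjusted p under 0.05 in the fit of all 8 arrays. It read 600.1, 704, 626 and 666 against 885, 979, 846 and 1154, without overlap, with a log2 difference of -0.57 ± 0.14 (adjusted p = 0.244). The selenoprotein list was lower in 5 of 13 (median 0.05), and in 8 of 13 without hyperthyroid 5 (median -0.09). Selenos and Selenof, both of the endoplasmic reticulum, stood at -0.34 ± 0.12 and -0.30 ± 0.14 on all 8 arrays. Among other reductases linked to NRF2, 9 of 15 were lower, and Akr1b1, aldose reductase, Aldh2, a mitochondrial aldehyde dehydrogenase, and Nqo2, a quinone reductase, stood at -0.49 ± 0.17, -0.46 ± 0.20 and -0.34 ± 0.16.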

How the data were processed

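The deposited values are intensities, 1 per probe set and array; per the submitters' processing notes GCOS was used (version not given), and the authors had scaled the arrays to a trimmed mean near 150.1, which was checked on the values. Other upstream steps: not given in the sources used here. Of 31099 probe sets, 57 were manufacturer's controls and were left out. Probe sets with 1 gene symbol in the platform annotation (20826) were named, and those with several (436) were not.

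Intensities were floored at 1 and taken to log2. The upper 60% by mean log2 signal over 8 arrays, 18625 probe sets, were fitted with limma 3.58.1 in R 4.3.3 (lmFit, eBayes with trend, two-sided; Benjamini-Hochberg over all probe sets). The script was tested on simulated data. The number of arrays, 1 per rat, limits the precision.

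The members and gene lists were chosen with earlier results of these data known. All members are named, and from each pathway list up to 3 genes with the smallest p among those at an unadjusted p under 0.05, or else the 1 with the smallest p. Other probe sets of a member are given where the sign or the value (by over 0.5) differs from the brightest. The second Srxn1 and Glrx probe sets were added after their values were seen. Motifs were searched on both strands of RefSeq windows.

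Alternatives changed the normalization, filter, offset, eBayes settings, array weights, probe set summary, Gapdh covariate or arrays. Fits that combine leaving out hyperthyroid 5 with the Gapdh ratio, quantile normalization or median centring were chosen after seeing the data.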

Additional observations from a re-analysis of the deposited data

Results flagged for a closer look

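In 3 of 68 groups of 4 rats, 1 array lay far from the other 3 by Dixon's test, where chance gives about 1 in 20 groups, or 3.4. All 3 were controls. Control 8 was highest for Gpx3, at 732 against 595 to 607 on the other controls, and still below every hyperthyroid array. It was also highest for Nqo1, at 561 against 437 to 444. Control 11 was lowest for Srxn1, at 8.49 against 73.8 to 91.7, and this value alone moved the Srxn1 difference from 0.17 to 0.99 on the log2 scale. Hyperthyroid 5 and hyperthyroid 2 were flagged in 0 groups each. The test looks for 1 extreme value, so 2 arrays that depart together can mask each other. For Gsta4, hyperthyroid 2 and 5 read 331 and 261 and hyperthyroid 1 and 3 read 690 and 774. The count of 0 therefore does not show that hyperthyroid 2 and 5 were like the others.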

How the results depend on the processing

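No paired analysis was possible because the groups share no replicate number. Of 716 values recomputed for single members, 692 kept their direction and side of the threshold or moved within the spread, 13 moved further, 6 passed the threshold and 5 reversed. A change of sign within the spread was not counted as a reversal, so the 692 include values of the opposite sign and do not measure how often direction held. The sign held in every setting run for 11 of 33 members. Gstt1, Mgst1, Gsta4 and Gstm1, all negative in the main fit, reached 0.79, 0.83, 0.45 and 0.43 at their highest over the settings. These changes of sign were not counted as reversals. The number of probe sets called was 0 in the fit of all 8 arrays, 6 with array weights, 8 with the Gapdh ratio in the model, 9 without hyperthyroid 5 and 2, and 0 to 29 when 1 array was left out, with 29 reached only without hyperthyroid 5. With an unadjusted p under 0.05 it was 2151, and 10 members passed. Leaving out 1 array gave a members' median of -0.29 to -0.11 and 23 to 27 members lower.

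Median centring gave a median of -0.31. Of the fits chosen after seeing the data, all without hyperthyroid 5, quantile normalization called 36 probe sets, and median centring called 313 (1.68%). With median centring 6 members passed the threshold in limma, namely Gpx1, Gpx4, Prdx2, Prdx3, Prdx5 and Gstm2 (adjusted p 0.0268 to 0.0427), and the median was -0.46. In that fit the median of all probe sets tested was -0.14, and 13 of the 313 called were higher. Relative to that median the members stood at -0.33, the same as without hyperthyroid 5 and without centring. With the Gapdh ratio in the model, 1 probe set was called, the median was -0.018 and 16 of 32 members were lower. In that fit the ratio cannot be told apart from the treatment. Of the reversed values, Gpx4 stood at 0.23 on all 8 arrays as the mean over its probe sets. The other 4 came from the same fits without hyperthyroid 5: Sod3 at 0.069 and Gstp1 at 0.93 with the Gapdh ratio, Sod1 at 0.22 with quantile normalization, and Mgst3 at -0.53 with median centring. The mean over probe sets takes in the dim second Gpx4 probe set. The causes of the other reversals were not tested. Gss, Gsr, Srxn1 and Gstt1 were dim, which limits their precision.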

Other observations

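Genes of metal handling and of reactive oxygen production gave few differences. Of 7 metal-binding genes tested 2 were lower. Cp, the copper-carrying ferroxidase ceruloplasmin, read 396, 205, 559 and 287 on the hyperthyroid arrays and 513, 526, 609 and 536 on the controls, with a log2 difference of -0.69 ± 0.26 (adjusted p = 0.354). Hyperthyroid 3 lay among the controls and the other 3 hyperthyroid arrays below them. Tfrc, the transferrin receptor, read 1358, 2489, 1559 and 2642 against 1273, 1277, 1245 and 1545, with 0.54 ± 0.21 (adjusted p = 0.370). Hyperthyroid 2 and 5 were far above the controls, hyperthyroid 3 was just above them and hyperthyroid 1 lay among them.

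Of 8 tested genes that make reactive oxygen or uncouple respiration 4 were lower, and none had an unadjusted p under 0.05. The smallest p belonged to Ucp3, the muscle uncoupling protein that thyroid hormone is known to induce. Ucp3 read 1248, 736, 510 and 540 against 574, 341, 388 and 750, with a log2 difference of 0.54 ± 0.31 (unadjusted p = 0.109, adjusted p = 0.522). Hyperthyroid 1 was above all controls and the other 3 lay among them.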
